A study of Caenorhabditis elegans with 2 samples.

Results

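The heterochronic genes set the order and timing of developmental events in Caenorhabditis elegans larvae, and the peaks of EFL-3, a member of the E2F family, at 9 of them are described here, out of 19973 protein-coding nuclear genes. The genes are lin-14, hbl-1, lin-28, lin-46, lin-41, lin-29, lin-42, dre-1 and nhl-2. They were chosen by name from the pathway with the peak signals and ranks of these same lists already known, so the values that follow are descriptions and carry no test. For each gene, every peak summit in the gene body or in the 5000 bp upstream of its annotated start was collected from each peak list. All 9 genes were found in the annotation.

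Chromatin immunoprecipitation with sequencing was done on whole larvae with an antibody against GFP, in 2 biological replicates of a single group. Both replicates were L1 larvae of strain OP344, of mixed sex and 6 hours old, synchronised by bleaching followed by starvation. They carried the unc-119 allele tm4063 and the transgene wgIs344, in which F49E12.6 (efl-3) is fused to TY1, EGFP and 3xFLAG tags beside a rescuing copy unc-119(+). The strain is 1 transgenic line and the material is the whole animal, so the cells in which a site was occupied cannot be told apart, and no untagged or other-stage group was analysed here. Each replicate has a list of 30000 peaks, and the authors also deposited 30000 peaks called on the pooled replicates and a reproducible set of 430. The reproducible set is exactly the 430 strongest pooled peaks by signal. The signal is the value the authors deposited in the signal column of the narrowPeak format, which by that format is a measure of enrichment. Its exact definition and scale are not stated. Rank 1 is the strongest peak of a list, and the q-values are those the authors deposited for each peak. Most peaks of the 30000 are weak: the pooled signals ran from 32.46 to 508.5 with a median of 41.61, and 259 pooled peaks had a q-value below 0.05. The read depth is unknown, and the lists hold no expression values with which the stage could be checked.

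In the heterochronic pathway, a set of proteins that specify early larval fates is switched off step by step by microRNAs, so that later fates follow. LIN-14, LIN-28 and HBL-1 act early, the let-7 family of microRNAs acts late, and LIN-41 and LIN-29 stand at the larval-to-adult switch of the epidermal seam cells. LIN-42, DRE-1 and NHL-2 adjust the timing or the strength of these steps. EFL-3 is an atypical E2F-family protein, and E2F proteins are known for binding a GC-rich consensus in promoters of cell cycle genes.

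The DNA under the summits that carry the description is shown first, as 201 bases centred on the pooled summit, on the plus strand of the RefSeq genome of WBcel235, the same assembly as ce11. Capitals mark matches to the motifs searched, on either strand. The motifs were the E2F consensus, spelled TTTCCCGC, TTTCGCGC, TTTGCCGC or TTTGGCGC, and the cell cycle homology region (CHR) element, spelled TTTGAA in its first form and TTCGAA in its other form. The rest were a repeat of the letters GAGAGA (the GAGA repeat), an E-box spelled CACGTG, the GATA site spelled CTGATAA, and an SP1-like box spelled CCGCCC. Matches of different motifs may overlap. The nhl-2 sequence is shown because it holds the strongest summit of the 9 genes. The 2 dre-1 and 2 lin-14 sequences are shown because an E2F consensus match lies within 100 bp of each summit, and they are the 4 summits at the 9 genes with such a match. The puf-9 sequence holds the strongest summit among the other timing genes described at the end.
nhl-2, chrIII:4899825-4900025: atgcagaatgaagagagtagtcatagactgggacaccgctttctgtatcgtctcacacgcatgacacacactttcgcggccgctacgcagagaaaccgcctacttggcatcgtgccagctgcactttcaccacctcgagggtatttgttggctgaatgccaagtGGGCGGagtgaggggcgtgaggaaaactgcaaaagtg
dre-1, chrV:6541921-6542121: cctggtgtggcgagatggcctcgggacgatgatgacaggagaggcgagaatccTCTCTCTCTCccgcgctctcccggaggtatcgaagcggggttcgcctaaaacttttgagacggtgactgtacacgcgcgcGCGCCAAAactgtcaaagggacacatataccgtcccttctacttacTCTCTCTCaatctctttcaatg
dre-1, chrV:6542130-6542330: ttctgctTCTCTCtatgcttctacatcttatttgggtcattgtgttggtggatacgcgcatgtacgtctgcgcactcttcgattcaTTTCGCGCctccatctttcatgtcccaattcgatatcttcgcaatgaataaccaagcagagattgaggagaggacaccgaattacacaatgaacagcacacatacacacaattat
lin-14, chrX:11464172-11464372: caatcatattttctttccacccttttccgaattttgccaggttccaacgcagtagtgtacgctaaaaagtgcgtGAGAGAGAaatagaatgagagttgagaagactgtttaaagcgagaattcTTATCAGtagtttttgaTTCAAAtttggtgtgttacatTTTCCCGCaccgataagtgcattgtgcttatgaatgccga
lin-14, chrX:11465164-11465364: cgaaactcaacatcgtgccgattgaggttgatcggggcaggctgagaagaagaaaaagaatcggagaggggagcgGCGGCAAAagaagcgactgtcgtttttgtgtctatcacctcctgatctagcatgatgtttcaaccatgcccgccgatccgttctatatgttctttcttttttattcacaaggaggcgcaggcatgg
puf-9, chrX:5841221-5841421: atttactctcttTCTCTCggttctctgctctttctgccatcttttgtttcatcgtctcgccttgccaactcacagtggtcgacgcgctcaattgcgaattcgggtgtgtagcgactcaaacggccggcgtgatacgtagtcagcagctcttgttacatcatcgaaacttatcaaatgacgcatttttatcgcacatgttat

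At the strongest nhl-2 summit the marked match is an SP1-like box, and no E2F consensus match lies in the 201 bases. At dre-1 the sequence around summit 6542021 holds TTTGGCGC on the minus strand, and that around summit 6542230 holds TTTCGCGC on the plus strand. At lin-14 the sequence around summit 11464272, 1288 bp upstream of the outer annotated start, holds TTTCCCGC on the plus strand. That around summit 11465264, 296 bp upstream of the same start, holds TTTGCCGC on the minus strand. The former is a weak summit, with a pooled signal of 37.7 (rank 20396), 24.7 in replicate 1 and no match in replicate 2. A match is a description of these letters, not a binding site shown by experiment.

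A summit of the reproducible set lay in the windows of 2 of the 9 genes, nhl-2 and lin-28, where 3.92% of all genes had such a summit. Among the 430 strongest peaks of replicate 1, summits also lay in the windows of 2 of the 9 genes, against 3.82% of all genes. Among those of replicate 2 there was 1 such gene, nhl-2, against 3.64% of all genes. All 9 genes had at least 1 relaxed pooled summit in the window, as did 85.3% of all genes. All 4 counts use the lists by which the genes were chosen, and nothing is read from them. The windows also differed in length, with a median of 12.7 kb for the 9 genes and 7.03 kb for all genes. Among genes whose windows were at least as long as the shortest of the 9, 4.69% had a reproducible summit. The highest pooled signal of each gene had a median of 65.0 over the 9 genes and 46.2 over all genes. It was 49.2 over the 10757 genes whose windows were at least as long as the shortest of the 9, 6.9 kb. That bound does not match the longer windows, so each gene was also set against genes with windows at least as long as its own. Larger values were found at 10 of 2821 for nhl-2, 273 of 5991 for lin-28 and 112 of 1623 for lin-41. They were found at 116 of 577 for dre-1, 2025 of 10757 for lin-46 and 87 of 218 for lin-42. For lin-14 this was 97 of 187, for lin-29 155 of 272 and for hbl-1 1648 of 2635.

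**Figure D1:**
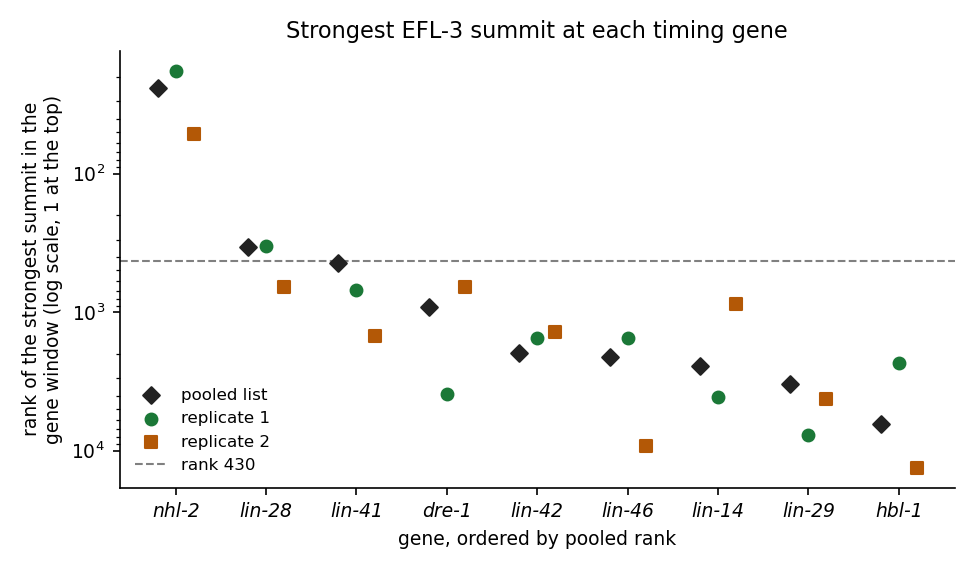
Rank of the strongest summit in each gene's window (vertical axis, log scale, 1 at the top) for each of the 9 genes, in the pooled list (diamonds), replicate 1 (circles) and replicate 2 (squares); the dashed line marks rank 430. The 3 points of nhl-2 lie between ranks 18 and 52, those of lin-28 lie near the line at 340, 334 and 658, and the points of lin-46 and hbl-1 are spread from 1540 to 9290 and from 2337 to 13348.

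NHL-2 is a TRIM-NHL protein that acts with the microRNA-induced silencing complex and strengthens repression by the let-7 family. It is encoded on the minus strand of chromosome III at 4893658 to 4899085. Its strongest summit, at 4899925, had a signal of 282.9 in the pooled list (rank 24, q = 0.0114), 172.8 in replicate 1 (rank 18, q = 0.0068) and 105.8 in replicate 2 (rank 52, q = 0.0169). The summits of the replicates lay 26 bp apart, and this was the highest value of the 9 genes in each of the 3 lists. The summit is intergenic, 840 bp upstream of the nhl-2 start and 583 bp upstream of the start of the divergent gene tag-340, and an exon of the non-coding RNA gene F26F4.14 overlaps the 201 bases around it. Intergenic here means outside protein-coding genes. It therefore lies nearer to tag-340 than to nhl-2, and the lists cannot tell which of these genes, if any, it belongs to. By largest pooled signal nhl-2 ranked 47 of the 19973 genes, together with tag-340, and 0.23% of genes had a larger value. Directly above it stood Y24D9A.6 and ell-1, which share a peak of 300.5, and directly below it F20B6.9 with 278.1. Of the 2821 genes whose windows were at least as long, 10 had a larger value. The other 5 pooled summits in the window were weak, with signals up to 49.8, and the strongest summit for which nhl-2 has the nearest start had 47.7.

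LIN-28 is an RNA-binding protein that blocks the maturation of let-7 and holds cells in early larval fates. The gene lies on the minus strand of chromosome I at 8407630 to 8410804 and has 2 annotated starts. Its strongest summit, at 8409994, had a signal of 104.6 in the pooled list (rank 340, q = 0.0898), 59.6 in replicate 1 (rank 334, q = 0.0435) and 44.5 in replicate 2 (rank 658, q = 0.407). The replicate summits lay 3 bp apart, but the summit ranked below the 430 strongest of replicate 2. It lies in an intron, 74 bp upstream of the inner start and 810 bp downstream of the outer one. A weaker pooled summit lay 774 bp upstream of the outer start with a signal of 57.7 (rank 3674), and replicate 1 had 39.9 there (rank 1588). Around the strongest summit, 3 GAGA repeat matches and 1 CHR element were found, and no E2F consensus match.

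LIN-46 is a gephyrin-related protein that acts downstream of LIN-28 and opposes HBL-1. The gene lies on the plus strand of chromosome V at 12968855 to 12970730, in the shortest of the 9 windows. Its strongest summit, at 12968203, had a signal of 64.2 in the pooled list (rank 2117) and 40.1 in replicate 1 (rank 1540), while replicate 2 had 24.3 there (rank 13470). The strongest summit of replicate 2 in the window, with 26.8, lay 1867 bp away inside the gene. The pooled summit lies 652 bp upstream of lin-46 and 221 bp upstream of R186.8, whose start is nearer.

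LIN-14 is a nuclear DNA-binding protein that specifies the earliest larval fates and is the target of the lin-4 microRNA. The gene lies on the plus strand of chromosome X at 11465560 to 11485871, and its window of 25.3 kb held 19 pooled summits, 14 of replicate 1 and 13 of replicate 2. This is the largest number of the 9 genes in each list, and 22 genes (0.11%) had at least as many pooled summits, which is 11.8% of the 187 genes with windows at least as long. None of the 19 was in the reproducible set. The highest pooled signal was 62.4 (rank 2457), at 11477237 in an intron 3124 bp upstream of the inner start, with 31.5 in replicate 1 (rank 5044) and 31.6 in replicate 2 (rank 4355). The next, 61.7, was also intronic. The highest values of the replicates lay elsewhere and 11693 bp apart: 32.9 in replicate 1, 2251 bp upstream of the gene, and 42.4 in replicate 2 (rank 870), inside the gene. A summit lay 296 bp upstream of each of the 2 annotated starts, with pooled signals of 53.9 at the outer start and 35.5 at the inner one. The former had a match in replicate 2 at 31.4 and none in replicate 1. Of the 19 summits, 13 were intronic, 5 intergenic and 1 in a coding exon. Within 100 bp, 3 had a match in both replicates, 11 in a single replicate and 5 in neither.

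HBL-1 is a zinc finger transcription factor of the Hunchback family that holds back later larval fates and is repressed by the let-7 family. Its gene spans 5822142 to 5827755 on the plus strand of chromosome X. Its strongest pooled summit, at 5820017 and 2125 bp upstream of the gene, had the lowest signal of the 9 genes, 51.5 (rank 6429), and no summit of either replicate lay within 100 bp of it. The strongest of replicate 1 was 36.8 (rank 2337), beside a weaker pooled summit of 43.1, and that of replicate 2 was 24.3 (rank 13348), 986 bp away. Larger values than that of hbl-1 were found at 36.1% of all genes, and at 1648 of the 2635 genes whose windows were at least as long. None of its 6 pooled summits was matched in both replicates.

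LIN-41 is a TRIM-NHL RNA-binding protein, a target of let-7, that keeps LIN-29 low before the adult switch. Its gene spans 9334800 to 9342496 on the minus strand of chromosome I. Its strongest summit, at 9343918 in intergenic sequence 1422 bp upstream, had a signal of 94.3 in the pooled list (rank 442, q = 0.182), 48.1 in replicate 1 (rank 689) and 38.6 in replicate 2 (rank 1486). The replicate summits lay 2 bp apart. This summit falls just outside the reproducible set, whose weakest peak had 94.83, while that of lin-28 falls inside with 104.6. A single other pooled summit lay in the window, in a coding exon, with 42.6 in the pooled list and 43.0 in replicate 1 (rank 1109). None of the 6 motifs matched at the strongest summit.

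LIN-29 is a zinc finger transcription factor that drives the larval-to-adult switch. Its gene spans 11917642 to 11935343 on the minus strand of chromosome II. Its strongest pooled summit, at 11935775 and 432 bp upstream of the outer start, had a signal of 58.9 (rank 3283), with 26.5 in replicate 1 (rank 10587) and 31.8 in replicate 2 (rank 4205). The strongest of replicate 1, 28.7, lay at the other end of the gene, 17372 bp from that of replicate 2. The other 4 pooled summits, all inside the gene, had signals from 33.8 to 39.0, below the pooled median.

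LIN-42 is the worm homologue of Period, which oscillates with the moults and restrains microRNA expression. The gene lies on the minus strand of chromosome II at 1233236 to 1252359, with 5 annotated starts, and all 8 pooled summits lay within the gene and none in the 5000 bp upstream. The strongest, at 1247022, was intronic, 2987 bp upstream of the nearest start, with a signal of 65.0 (rank 1988), 40.2 in replicate 1 (rank 1526) and 26.9 in replicate 2 (rank 9170). The strongest of replicate 2, 39.0 (rank 1389), lay 8868 bp away. GAGA repeats were found at 6 of the 8 summits, the most of any of the 9 genes.

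DRE-1 is the F-box subunit of a ubiquitin ligase that acts with the nuclear receptor DAF-12 in the timing of gonadal and epidermal development. It is encoded on the minus strand of chromosome V at 6533614 to 6546500, with 3 annotated starts. Its 2 strongest pooled summits lay close together in an intron, 3959 and 4168 bp upstream of an inner start and 4479 and 4270 bp downstream of the outer one. The summit at 6542021 had a signal of 76.3 (rank 921, q = 0.561), with 44.6 in replicate 2 (rank 657) and no match in replicate 1. The summit at 6542230 had 68.8 (rank 1505), with 33.2 in replicate 1 (rank 3891) and 35.4 in replicate 2 (rank 2383). Both sequences shown above hold an E2F consensus match. The non-coding RNA gene K04A8.17 is annotated within 200 bp of both summits, and K04A8.16 within 200 bp of the stronger. Overlapping GAGA repeats gave 5 matches at the stronger summit and 1 at the weaker.

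**Figure D2:**
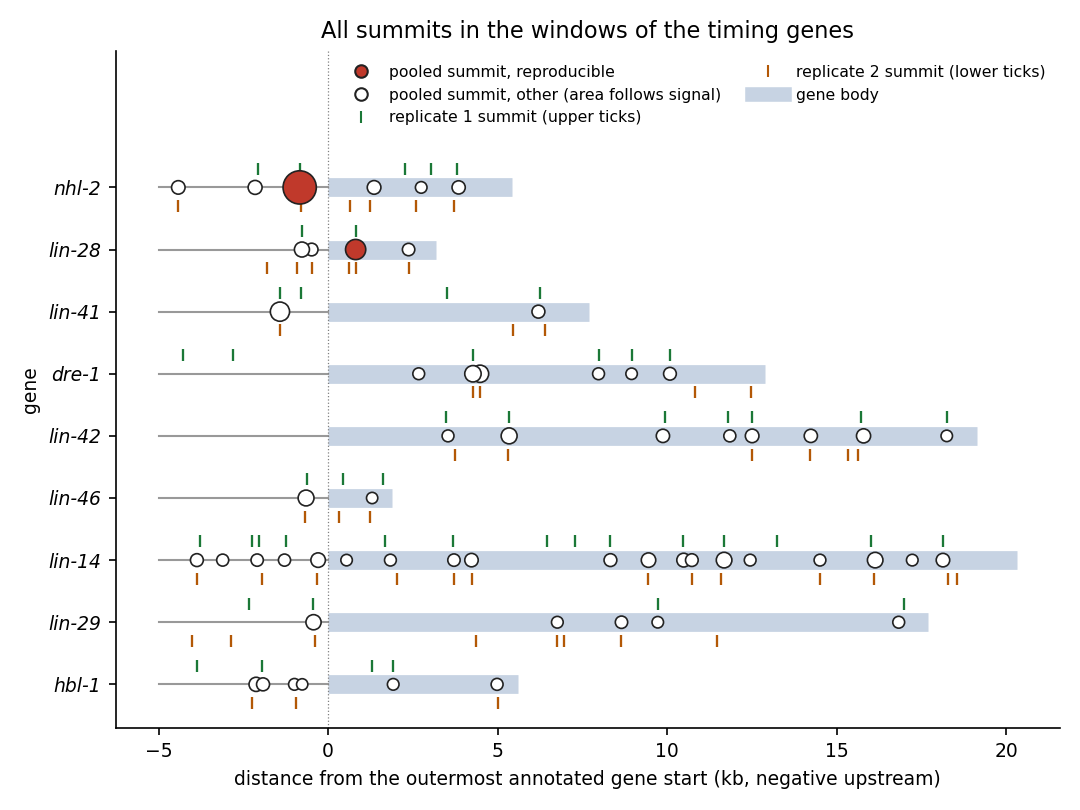
All summits of the 3 relaxed lists in the windows of the 9 genes, by distance from the outermost annotated start (kb, negative upstream); circles are pooled summits with area following signal, filled where reproducible, and ticks above and below are summits of replicates 1 and 2. The 2 filled circles are at nhl-2, 840 bp upstream, and at lin-28, 810 bp downstream, and the 19 summits of lin-14 spread over its whole window.

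The 9 windows together held 58 pooled summits, 49 of replicate 1 and 52 of replicate 2. In the 138.8 kb that they cover, this is 4.18 pooled summits per 10 kb, with 3.53 and 3.75 in the replicates, where the nuclear genome had 2.99 in each list and all gene windows 3.07 in the pooled list. The density was not even among the genes: lin-14 had 7.51 pooled summits per 10 kb, nhl-2 5.75 and hbl-1 5.65, while lin-41 had 1.58 and lin-29 2.2. The value for the set leans on lin-14, whose 25.3 kb held 19 of the 58 pooled summits. It also held 14 of the 49 of replicate 1 and 13 of the 52 of replicate 2. The density without lin-14 was not computed. At lin-28 the replicates differed, with 2.45 in replicate 1 and 7.34 in replicate 2. The gene bodies held 41 of the 58 summits and the upstream sequences 17.

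**Figure D3:**
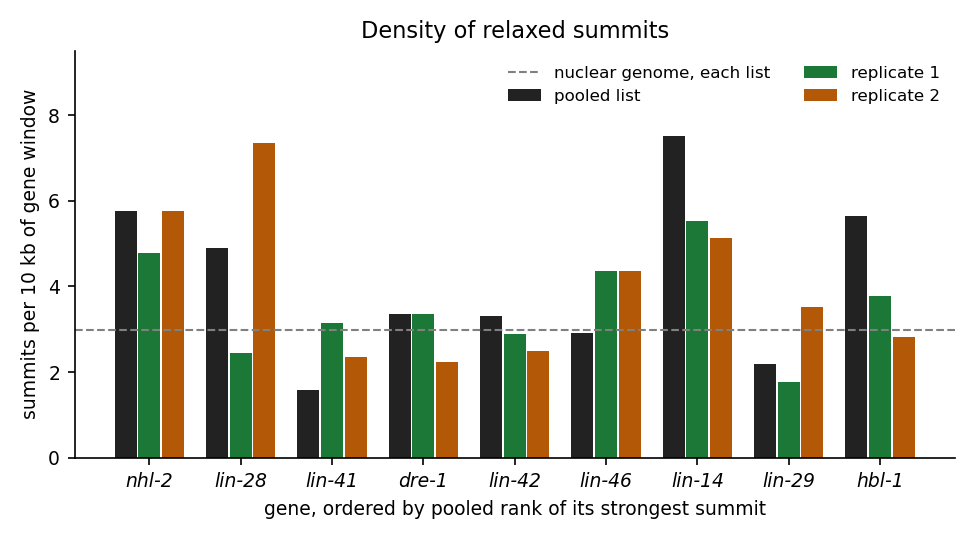
Summits per 10 kb of gene window for the 9 genes in the pooled list, replicate 1 and replicate 2 (bars), with the nuclear genome's value as a dashed line at 2.99. The bars of nhl-2 and lin-14 lie above the line in all 3 lists, from 4.79 to 5.75 and from 5.14 to 7.51, and those of lin-28 range from 2.45 to 7.34.

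By position, 28 of the 58 pooled summits were in introns (48.3%, against 29.5% of all pooled summits). A further 15 were intergenic (25.9% against 30.9%), 12 in coding exons (20.7% against 35.0%), 2 in 3′ UTRs and 1 in a 5′ UTR. Of the 28 intronic summits, 13 belong to lin-14 and 5 to lin-42. The shares cover unlike sequence, gene bodies with 5000 bp upstream on one side and the whole genome on the other. How much of the windows is intron was not measured. A non-coding RNA gene was annotated within 200 bp of 13 summits (22.4%), against 11.8% of all pooled summits and 27.9% of the reproducible ones. Among the strongest summits of the 9 genes, this held for 4, those of nhl-2, dre-1, lin-42 and hbl-1. No share over the strongest summits of all genes is given here, so this count has no background.

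Of the 58 summits, 11 were matched within 100 bp in both replicates (19.0%, against 24.8% of all pooled summits), 36 in a single replicate and 11 in neither. The strongest pooled summit was matched in both replicates at 7 of the 9 genes, where this held for 41.6% of genes with a pooled summit. The exceptions were hbl-1, matched in neither, and dre-1, matched in replicate 2. The strongest summits of the 2 replicates, each taken on its own, lay within 100 bp of each other at 3 of the 9 genes, against 18.1% of genes with a summit in both lists. These were nhl-2, lin-28 and lin-41, the 3 genes with the highest pooled signals, and the pooled list was itself called on both replicates. The 41.6% and 18.1% are not restricted to genes of like signal or window length. The median of each was higher over the 9 genes than over all genes. Over the 11 summits matched in both, the replicate signals had a rank correlation (Spearman) of 0.736, and the log10 signals a Pearson correlation of 0.911. Without nhl-2 these were 0.648 and 0.708 over 10 summits, a choice made after seeing the data. Over all 7449 matched summits they were 0.253 and 0.544. A correlation depends on the range of the signals, and the 2 sets were not matched for it. The 11 include the high signals of nhl-2, lin-28 and lin-41, so better agreement at these genes is not read from the values. The points share their libraries, and several lie at the same gene, so they are not independent.

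**Figure D4:**
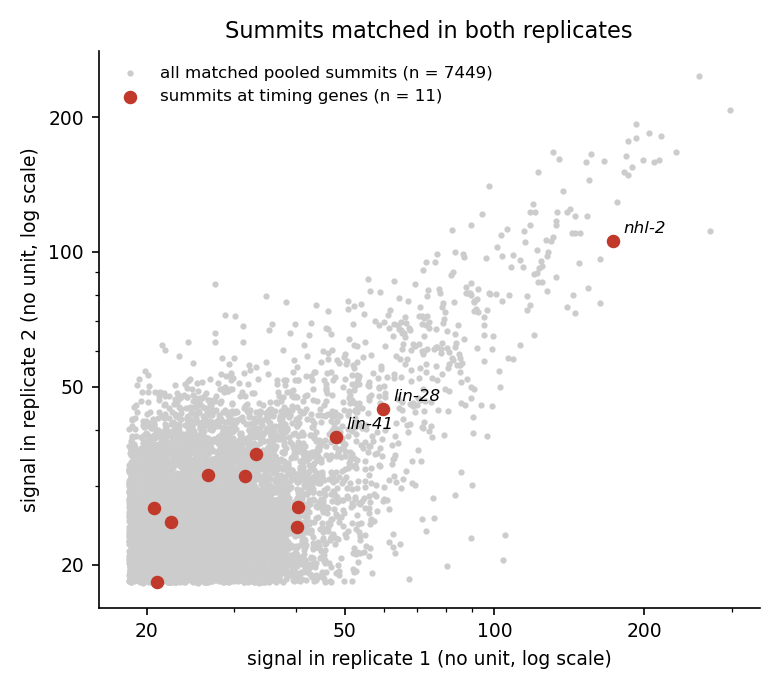
Signal in replicate 1 against signal in replicate 2 (no unit, log scales) for pooled summits matched within 100 bp in both; grey points are all 7449 and red points the 11 in the windows of the timing genes. The nhl-2 point, at 172.8 and 105.8, lies apart from the other 10, followed by lin-28 at 59.6 and 44.5 and lin-41 at 48.1 and 38.6.

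The E2F consensus matched within 100 bp of 4 of the 58 summits (6.90%), where it matched at 4.15% of all pooled summits, 7.44% of the reproducible ones and 3.33% of the 201 bases that end at the start of each gene. The 4 belong to lin-14 and dre-1, with 2 each, and the remaining 7 genes had none. Among the strongest summits of the 9 genes, 1 had a match, that of dre-1, and this count too has no share over the strongest summits of all genes. GAGA repeats were found at 19 summits (32.8%), against 14.1% of all pooled summits, 29.8% of the reproducible ones and 16.3% at gene starts. These lay at 7 of the 9 genes, and no share of all genes was computed for that count. It depends on the number of summits: lin-41 and lin-46, with 2 each, had no match, while lin-14 has 19. For the other motifs, the shares of all pooled summits, of the reproducible ones and of gene starts follow in that order. CHR elements were found at 23 (39.7%, against 43.9%, 44.0% and 56.2%) and GATA sites at 4 (6.90%, against 3.32%, 1.4% and 6.02%). SP1-like boxes were found at 5 (8.62%, against 5.47%, 12.6% and 5.97%) and E-boxes at 2 (3.45%, against 4.99%, 7.44% and 4.23%). The median GC content of these windows was 42.0% at the 58 summits and 40.3% at all pooled summits, and the motifs differ in base composition.

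A wider list of 19 further timing genes, among them microRNA pathway proteins and nuclear receptors, was set beside the 9. A single gene of the 19 had a reproducible summit, puf-9, which encodes a Pumilio-family RNA-binding protein, where 3.92% of all genes had one. The puf-9 summit, at 5841321 on chromosome X and 271 bp upstream of the start, had a signal of 166.0 in the pooled list (rank 112), 87.8 in replicate 1 (rank 128) and 81.1 in replicate 2 (rank 100). Its 3 ranks were thus close to each other, and each signal lay below that of nhl-2 and above that of lin-28 in the same list. The next strongest values were at xrn-2, an exoribonuclease gene, with 88.9 (rank 528), and at nhr-85, a nuclear receptor gene, with 82.4 (rank 675). In each of those windows the summit lay nearer to the start of another gene, Y48B6A.1 and hpo-2. The median of the largest pooled signal was 65.9 over the 19 genes, close to the 65.0 of the 9, and the lowest was 42.1.

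Of the 5 microRNA genes that act on these targets, 0 had a reproducible summit, where 3.92% of protein-coding genes had one. The strongest pooled signals were 56.3 at lin-4 (rank 4141), 55.0 at let-7 (rank 4673), 49.3 at mir-48, 46.1 at mir-241 and 41.4 at mir-84. In replicate 1 the strongest summits ranked from 3404, at mir-84, to 8238, at let-7. In replicate 2 the let-7 summit had 42.9 (rank 819), above the strongest of lin-14 in that list, and the other 4 genes ranked from 3994 to 25020. The let-7 summit of replicate 2, at 14744644, lay close to the pooled one at 14744605, both inside the annotated gene. The strongest let-7 summit of replicate 1 lay elsewhere, at 14749874 and 4553 bp upstream. In replicate 1, mir-48 and mir-241 shared their strongest summit, at 14368594 (rank 5696). The genes named as their targets above, lin-14, lin-41 and hbl-1, had pooled signals of 62.4, 94.3 and 51.5 and no reproducible summit. They are not a full list of targets, and other genes described here may be targets too. The early-acting gene lin-28 had 104.6 and a reproducible summit, and was not classed here as a target or a non-target. No contrast between targets and other genes is read from these values.

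**Figure D5:**
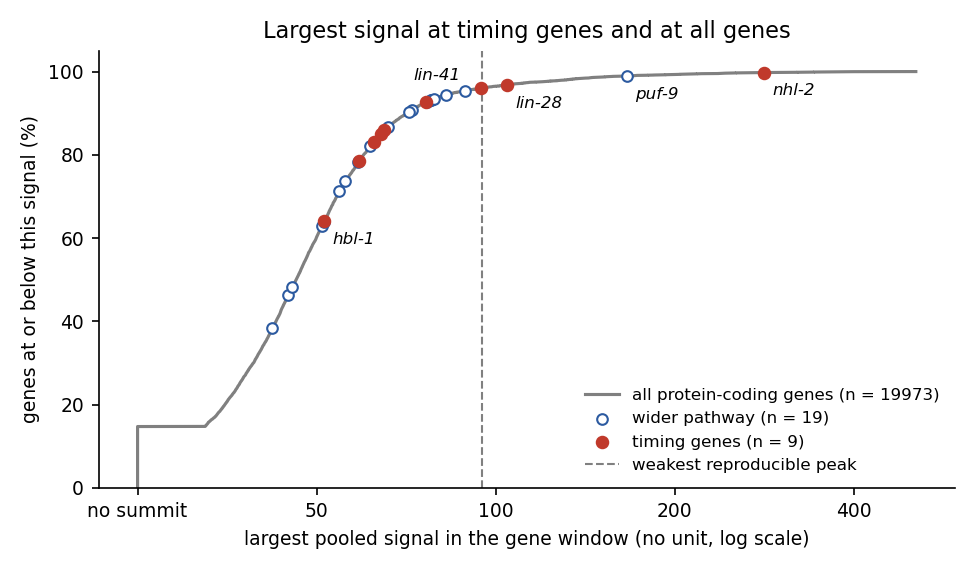
Share of the 19973 protein-coding genes at or below each highest pooled signal per gene (horizontal axis, no unit, log scale; genes without a summit are placed at the left end), with the 9 timing genes as filled and the 19 wider genes as open points; the dashed line is the weakest reproducible peak at 94.83. nhl-2 at 282.9, puf-9 at 166.0 and lin-28 at 104.6 lie to the right of the line and lin-41 at 94.3 just to its left.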

How the data were processed

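EFL-3-GFP peaks were analysed in 2 biological replicates of L1 larvae. The authors deposited 4 peak lists on ce11, per the labels: 1 for each replicate, 1 for the pooled replicates and a reproducible set. The deposited signal column was read as the peak's enrichment, by the narrowPeak format, since its definition and scale are not stated; the deposited −log10 q column was turned back into q-values. The sources used here do not give the aligner, peak caller, thresholds or depth.

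Summits are the peak start plus the deposited offset. Gene models came from Ensembl release 115 (WBcel235), and microRNA genes and sequence from RefSeq. A gene window is the gene body plus 5000 bp upstream. Summits within 100 bp were matched, and motifs were searched within 100 bp on both strands. Python 3.11.15, numpy 2.4.6, pandas 2.3.3, scipy 1.17.1 and matplotlib 3.10.9 were used. The window counts and the motif search were tested on simulated data with planted summits and motifs. The matching of summits between lists was not tested in this way.

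The 9 genes and all lists were chosen with earlier results of these data known. The genes named are all 9, the wider-list genes with a reproducible summit, the next strongest 2, the rank neighbours of nhl-2 and the microRNA genes. Summits other than the strongest were singled out after their values were seen. The alternatives changed the window, matching distance, peak threshold, motif flank and replicate.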

Additional observations from a re-analysis of the deposited data

How the results depend on the processing

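The count of 2 genes with a reproducible summit, and of 2 such summits, fell to 1 under each stricter rule: nhl-2 remained with the 259 peaks of q-value below 0.05, with the strongest 215 peaks, and with the 238 peaks that ranked among the 430 strongest of both replicates. It also fell to 1, lin-28, with the gene body alone and when a summit counted for the gene with the nearest start. The share of all genes with a reproducible summit, 3.92%, was 0.586% with the gene body alone and 2.67% with 2000 bp upstream, and was not computed under the other rules for this count apart from the 2 replicate lists. With the list of a single replicate in place of the pooled list, the count of genes was 1 to 2, as was the count of summits. For the wider list the count of 1 was 1 to 2 with a single replicate and 0 with the gene body alone. The density of 4.18 pooled summits per 10 kb was 4.65 with 2000 bp upstream, 4.37 with the gene body alone, and 3.53 to 3.75 in single replicates. The count of 7 genes with the strongest summit matched in both replicates was 4 in the promoter window (1000 bp upstream to 500 bp downstream), 3 with the gene body alone and 1 with the strongest 430 peaks of each replicate only. The share of all genes, 41.6%, was not computed under these 3 rules, so the counts of 4, 3 and 1 have no background here. The median largest signal of 65.0 was 53.9 in the promoter window, 47.7 with the gene body alone and 62.4 with the nearest start only. In single replicates it was 39 to 40.1, on lists whose signals run lower throughout. The rank correlation of 0.736 fell to 0.648 without nhl-2, which was tried after the data had been seen. The cause of these moves was not tested, apart from what each rule leaves out by construction. The count of E2F matches at the strongest summits was 1, at dre-1, with 50 and 150 bp to each side. For the strongest summit in the promoter window it was also 1, but the gene changed to lin-14, at summit 11465264 with 53.9. The dre-1 summit in that window, at 6538526 with 36.0, had no match. With 1 group and 2 replicates there is no comparison, and without read depth no interval can be given. No paired analysis was possible because there is a single group.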
